A study of Drosophila melanogaster with 6 samples.

Results

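The genes so (sine oculis), eya (eyes absent), Six4, Optix and dac (dachshund) form the So, Eya and Dac network of Drosophila. They were taken by exact gene symbol from the array's platform annotation, which holds 1 probe set for each, so these 5 genes of 10844 with a named probe set are each read by a single probe set. Probe sets were to be chosen by their mean over all arrays, which left no choice with 1 each. The group was put together with the difference of so between the sorted cells already known, so the values of so describe it and add no independent evidence.

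So, Six4 and Optix are the homeodomain transcription factors of the sine oculis family in flies. So and Six4 bind the coactivator Eya, which is also a tyrosine phosphatase, and Optix works with other partners. Dac is a nuclear factor of the Ski and Sno family that acts with So and Eya in eye formation. In the embryo the same proteins are used outside the eye: so and Optix in the head and visual primordia, and eya and Six4 in the mesoderm, where both are needed for the somatic cells of the gonad and Six4 for fat body and some body wall muscles.

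The samples were cells of TinD-GFP embryos between late stage 11 and early stage 12, dissociated and sorted by flow cytometry. There were 3 arrays of GFP-positive cells, which per the labels are cardiac mesoderm cells expressing Tinman, and 3 arrays of GFP-negative cells, the rest of the same embryos, so that every sample carried the reporter. The TinD enhancer of tin is known as the Dpp-responsive one, active in the dorsal mesoderm. Whether replicates were sorted from separate collections of embryos is not stated in the labels, so p-values cover only the spread among these arrays, which may be technical.

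Values are log2 signals on Affymetrix Drosophila Genome 1 arrays. A background level of 2.44 was taken from the brightest, on average, of 23 controls that match no fly gene. The brightest of them on each array lay between 2.58 and 3.55. Array medians lay between 3.71 and 3.73, and the arrays correlated with a mean Pearson's r of 0.932 inside and 0.930 across groups. In the cardiac and dorsal mesoderm list, the labelled cell type, 2 of 15 measured genes passed as higher in GFP-positive cells, Him (0.56 ± 0.08, SE) and bap (0.42 ± 0.08), and 0 as lower. Over all genes 1.5% passed as higher and 0.968% as lower. That list's median log2 difference was 0.31, against -0.023 over all genes. Without overlap of the groups 5 of the 15 were higher and 4 lower, where 9.28% of all genes were higher and 11% lower without overlap. The 5 higher ones were Him, bap, tup (0.45), eve (0.34) and zfh1 (0.31), and of these tup, eve and zfh1 did not pass. The 4 lower ones were the T-box genes Doc1 (-0.21), Doc2 (-0.42) and Doc3 (-0.36, limma adjusted p = 0.082) and the GATA factor gene pnr (-0.29), none of which passed. Hand, a heart factor, averaged 2.49 in the GFP-positive fraction, next to background, and 1.10 in the GFP-negative fraction, below it.

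In GFP-positive cells so was higher by close to a doubling, and none of the other network genes passed the test. eya was slightly higher and Six4, Optix and dac lower by values that the test did not tell from no difference. All 5 genes had means above background in both groups. That is a low bar, since 7246 of 10844 genes had a mean over all arrays above it. 1 of the 5 passed as higher and 0 as lower, where 1.5% of all genes passed as higher, 0.968% as lower and 2.47% either way (2.43% of all probe sets). Since the group was chosen with the call of so known, nothing is read from that share. The median log2 difference of the 5 genes was -0.26.

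**Figure D1:**
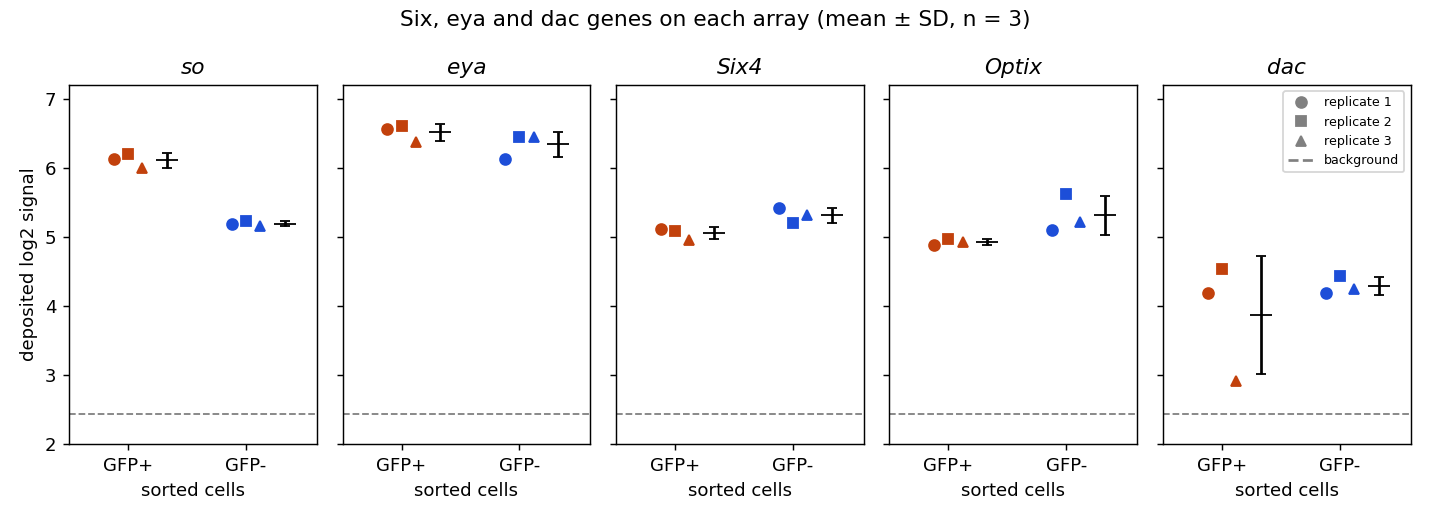
Deposited log2 signal (y axis) of so, eya, Six4, Optix and dac on each of the 3 GFP-positive and 3 GFP-negative arrays (GFP+ and GFP-, x axis), with symbols for replicate number, bars for mean ± SD (n = 3) and a dashed line at the background level of 2.44. The groups are apart for so, with GFP-positive arrays higher, and for Six4 and Optix, with GFP-positive arrays lower, and they overlap for eya and dac.

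so encodes the founding homeodomain factor of the family, required for the whole visual system. Its log2 signals were 6.12, 6.20 and 5.99 on the GFP-positive arrays, against 5.19, 5.23 and 5.16 on the GFP-negative arrays. Every GFP-positive array lay above every GFP-negative one, and the gap between the groups exceeded the ranges within them, 0.21 and 0.073. The GFP-positive mean was 6.11 ± 0.11 and the GFP-negative mean 5.19 ± 0.04 (SD, n = 3 each). The difference was 0.91 ± 0.11 (log2, SE; limma adjusted p = 0.0049), a 1.88-fold higher signal with a 95% interval of 1.59- to 2.23-fold. With 1 prior variance shared by all probe sets, limma gave the same difference with an adjusted p of 0.156 and called 0 of 13966 probe sets, 1482 of which had an unadjusted p under 0.05. An exact 2-sided permutation test over the 6 arrays gave p = 0.1, the smallest it can give with 3 against 3. With 32 added to the linear signal the difference was 0.56 ± 0.06 and still passed (adjusted p = 0.0068). Of all genes, 603 had a larger positive difference than so.

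In sorted cells of mixed type, a higher signal can come from more cells that express so or from more so RNA per cell, and these cannot be told apart. The GFP-negative signal of so lay well above the background level on every array. so RNA was thus measured in both fractions.

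eya encodes the coactivator and phosphatase that So and Six4 recruit, and is needed in the gonadal mesoderm. Its log2 signals were 6.57, 6.60 and 6.37 on the GFP-positive arrays, against 6.12, 6.45 and 6.44 on the GFP-negative arrays. GFP-positive replicate 3 lay below GFP-negative replicates 2 and 3, so the groups overlapped. The difference was 0.17 ± 0.12 (log2, SE; limma adjusted p = 0.575), with a 95% interval of -0.092 to 0.44. That interval leaves room for a lower signal by 0.092 and for a higher one by 0.44. It lies below the interval of so, 0.67 to 1.16. The group was chosen with the difference of so known, so this is no test between so and eya. Without GFP-negative replicate 1, whose eya signal was the lowest of the 6, the difference was 0.066.

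Six4 encodes the family's mesodermal factor. Its log2 signals were 5.12, 5.09 and 4.96 on the GFP-positive arrays, against 5.41, 5.20 and 5.32 on the GFP-negative arrays. Here the groups did not overlap and GFP-positive cells were the lower ones. The difference was -0.26 ± 0.13 (log2, SE; limma adjusted p = 0.427), with a 95% interval of -0.55 to 0.041, so Six4 did not pass.

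Optix encodes the family member that acts in the head and the eye. Its log2 signals were 4.88, 4.97 and 4.93 on the GFP-positive arrays, against 5.10, 5.63 and 5.21 on the GFP-negative arrays. The groups did not overlap, with GFP-positive cells lower, and the GFP-negative arrays spread more, over 0.53 against 0.089 in GFP-positive cells. The difference was -0.39 ± 0.17 (log2, SE; limma adjusted p = 0.322), with a 95% interval of -0.76 to -0.0094 that is not adjusted for the number of probe sets, and Optix did not pass. Without GFP-negative replicate 2, the highest array, it was -0.23. Groups that do not overlap are frequent in these data, with 9.28% of all genes higher and 11% lower in GFP-positive cells without overlap, 20.2% in all.

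dac encodes the Ski and Sno family factor. Its log2 signals were 4.18, 4.53 and 2.91 on the GFP-positive arrays, against 4.18, 4.43 and 4.25 on the GFP-negative arrays. A single array set the difference: GFP-positive replicate 3 lay far below the other 5 arrays and below the highest control of that array, 3.23, while the remaining GFP-positive arrays lay just below and just above the range of the GFP-negative ones. The difference was -0.42 ± 0.40 (log2, SE; limma adjusted p = 0.721), with a 95% interval of -1.33 to 0.50. Without GFP-positive replicate 3 it turned to 0.066 ± 0.23 (adjusted p = 0.947), so no direction is shown for dac.

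GFP-positive replicate 3 had the lowest signal of its group for so, eya, Six4 and dac, 4 of the 5 genes. Over all genes it was the lowest GFP-positive array for 35.2%, near an even share among arrays. Leaving it out raised the difference of so to 0.97 and that of eya to 0.25 and moved that of Six4 to -0.21.

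**Figure D2:**
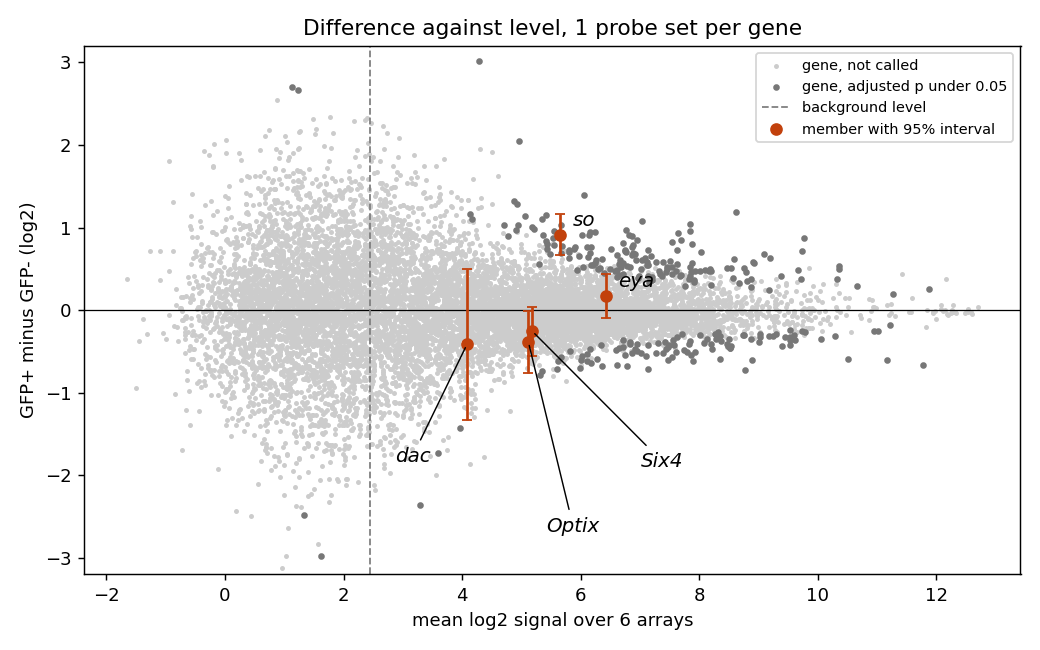
GFP-positive minus GFP-negative difference (log2, y axis) against mean log2 signal over 6 arrays (x axis) for 10844 genes, with so, eya, Six4, Optix and dac in orange with their 95% intervals, and called genes in dark grey. so lies at 0.91 among the genes called higher, the other 4 lie among genes that were not called, and the interval of dac is the widest.

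The genes were also set against each other within each array, since so, eya, Six4 and dac are often described as acting together. so minus eya was 0.74 higher in GFP-positive than in GFP-negative cells, so minus Six4 1.17, so minus Optix 1.30 and so minus dac 1.33 (log2), and in all 4 pairs the groups did not overlap. eya minus Six4 was 0.43 higher and eya minus Optix 0.56 higher, also without overlap. Six4, Optix and dac differed from one another by 0.030 to 0.16 with overlapping groups. Of the 10 pairs compared, 6 reached the smallest exact permutation p possible, 0.1 (2-sided, 0.167 adjusted over the pairs), so this design cannot take any of them past 0.05. The pairs with so rest on the difference for which the group was chosen.

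The 5 genes differ in annotated span, and differences in these data rise with span. Genes with a mean signal above 4 were split into deciles by span, and the median log2 difference went up with each, from -0.18 for the shortest spans to 0.24 for the longest. eya and dac fall into the longest decile, so and Optix into decile 9, with a median of 0.14, and Six4 into decile 7, with a median of 0.00023. In the decile that holds so and Optix, 14 of 517 genes had a larger difference than so, and 502 a larger one than Optix. After an adjustment for span the difference of so was 0.82 ± 0.11 and passed (limma adjusted p = 0.012). eya then differed by 0.075, Six4 by -0.25, Optix by -0.46 and dac by -0.51, and none of these passed.

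so and Optix lie on the same chromosome with 92 measured genes between them in chromosome order, so they are not next to each other. The measured genes on either side of so, CG1701 and CG11145, differed by 0.22 and -0.86 (limma adjusted p = 0.946 and 0.326), and CG1701 had means below background in both groups. Next to eya, CG31637 differed by 0.23 (adjusted p = 0.767), and COX5B, a respiratory chain subunit gene that is second in order from eya, fell by 0.37 (adjusted p = 0.016). Of the 20 measured genes within a distance of 2 from a network gene, COX5B was the one called. Over all genes 2.47% were called either way, so nothing is read from this count.

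Genes whose signal ran most like that of each network gene over the 6 arrays were found by the root mean square difference of log2 signals centred on each gene's mean, among 5178 genes with a mean above 4. Nearest to so were Hph, the HIF prolyl hydroxylase gene (0.055), kst, which encodes the heavy beta spectrin karst (0.075), and lmd, which encodes a transcription factor of fusion-competent myoblasts (0.079), where the median over genes was 0.51. lmd had log2 signals of 8.35, 8.50 and 8.27 on the GFP-positive arrays, against 7.25, 7.43 and 7.29 on the GFP-negative arrays, and a difference of 1.05 ± 0.08 (limma adjusted p = 6.7e-04). kst rose by 0.90 ± 0.08 (adjusted p = 0.0012) and Hph by 0.93 ± 0.06 (adjusted p = 4.1e-04). Genes chosen for their likeness to so share its difference and small spread by that choice, so these calls add no evidence. The probe sets of Hph disagree: the other 2 differed by 0.37 and -0.77.

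Nearest to eya were Tl, the Toll receptor gene (0.046), Mnn1, the menin gene (0.049), and 4E-T, which encodes a partner of the cap-binding protein (0.057). Nearest to Six4 were Taf5, a subunit gene of the general factor TFIID (0.013), CG4679 (0.028) and sofe (0.032). Optix was nearest to CG13344 (0.084), mms4 (0.086) and CG18004 (0.091), and dac to CG2233 (0.11), l(2)gd1 (0.15) and fh, the frataxin gene (0.15). None of the genes nearest to eya, Six4, Optix or dac passed the test, which largely follows from choosing them by likeness to genes that did not pass. The genes nearest to dac had their lowest signals on GFP-positive replicate 3, 2.99 for CG2233, 3.41 for l(2)gd1 and 2.97 for fh, which follows from choosing them by their likeness to dac.

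Of other genes of eye specification, 13 of 18 listed were measured and 0 passed in either direction, with a median log2 difference of 0.037. The single prior variance called 0 of all 13966 probe sets, so its 0 calls here say nothing about this list. The Pax6 genes ey and toy, which stand above so in the eye, differed by 0.19 ± 0.20 and 0.037 ± 0.16 (SE). dan, a nuclear factor gene of the eye field, had the smallest p, with means of 4.55 in the GFP-positive and 5.14 in the GFP-negative fraction and a difference of -0.59 ± 0.15 (adjusted p = 0.095). gro, the corepressor Groucho that binds proteins of this family, differed by 0.26 ± 0.09 (adjusted p = 0.182). The proneural gene ato, which acts downstream of the network in the eye, averaged 5.95 in the GFP-positive and 6.15 in the GFP-negative fraction. gl and lz, both downstream in photoreceptor formation, had means below background in both groups.

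The list of the embryonic head and visual primordium, where so and Optix are expressed, had a median of -0.20 over 14 measured genes of 17, 10 lower and 4 higher, and 0 passed. The LIM homeobox gene tup differed by 0.45 ± 0.13 (adjusted p = 0.134), a difference that turned to -0.13 with the mean of its probe sets, and slp2 by -0.32 ± 0.13 (adjusted p = 0.280). The head gap genes ems, oc and btd differed by -0.40, -0.11 and 0.061, and tll averaged 2.10 ± 1.70 in the GFP-positive and 3.69 ± 0.43 in the GFP-negative fraction (SD).

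In the gonadal mesoderm and fat body list, where eya and Six4 act, 1 of 10 measured genes of 14 listed passed as higher, bap (0.42 ± 0.08, adjusted p = 0.035), a homeobox gene better known from the visceral mesoderm. srp, the GATA factor of fat body and blood cells, differed by 0.43 ± 0.12 (adjusted p = 0.110). Over all genes 1.5% passed as higher, and nothing is read from a single call. The median of the list was 0.036. tj, a marker of the somatic gonad, had means below background in both groups, 0.93 in the GFP-positive and 1.24 in the GFP-negative fraction.

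**Figure D3:**
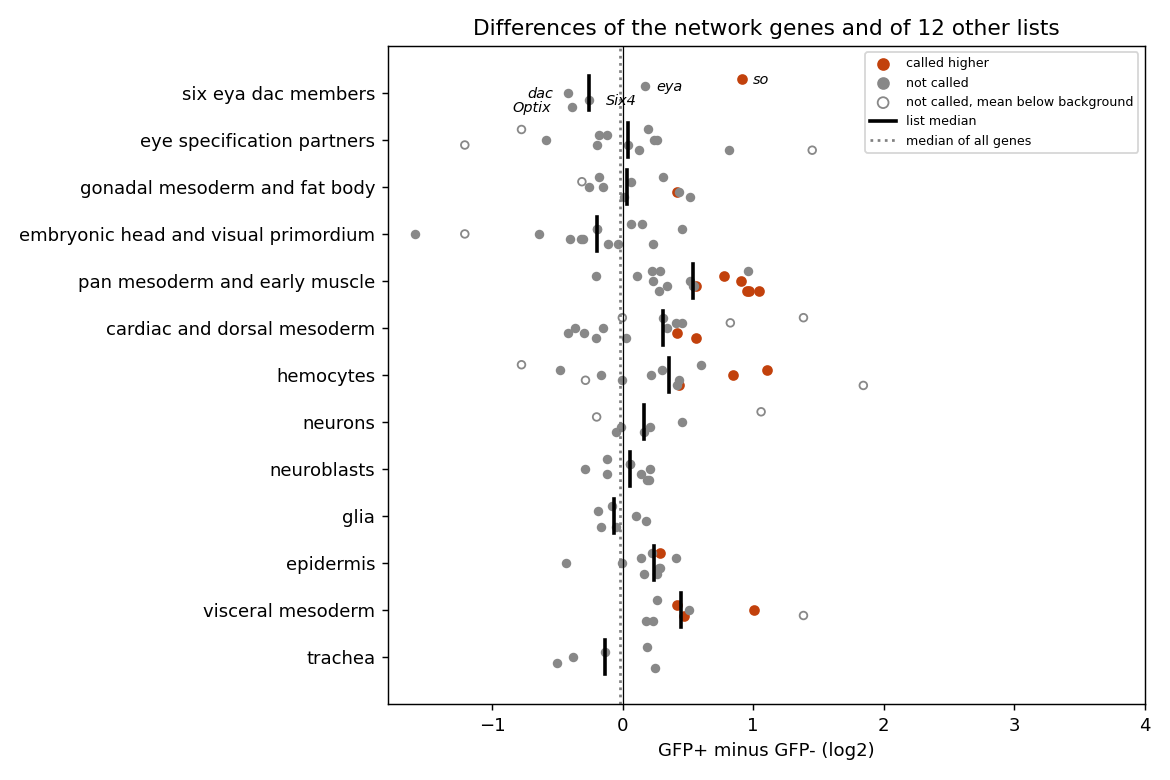
GFP-positive minus GFP-negative difference (log2, x axis) of each measured gene in the network and in 12 further lists (rows), with genes called higher in orange, genes with a mean below background as open circles, list medians as black bars and the median of all genes as a dotted line. The pan-mesoderm and early muscle list has a median of 0.54 with 6 of 17 genes called higher, and the eye specification list one of 0.037 with 0 called.

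In the pan-mesoderm and early muscle list, 17 of 20 listed genes were measured, and the median log2 difference was 0.54. In value 16 of them were higher and 1 lower, and 6 passed as higher and 0 as lower. Over all genes 1.5% passed as higher and 0.968% as lower. The 11 that did not pass ran from Poxm (-0.20) to kirre (0.96), with twi (0.28) and sns (0.23) among them. The 6 that passed were lmd (above), blow (0.95 ± 0.13), Him (0.56 ± 0.08), rols (0.91 ± 0.15), Con (0.97 ± 0.17) and if (0.78 ± 0.13). Their limma adjusted p ran from 6.7e-04 to 0.021. blow and rols act in myoblast fusion, Con in muscle adhesion, and if encodes an integrin subunit. The summed linear signal of the list was 1397 to 1536 on the GFP-positive arrays, against 972 to 996 on the GFP-negative arrays. Of the visceral mesoderm list all 8 measured genes were higher in value, with a median of 0.44. From that list 3 passed as higher, mib2 (0.47 ± 0.08), Vrp1 (1.01 ± 0.19) and bap, and 0 as lower. The other 5 did not pass: org-1 (0.51), bin (0.26), Alk (0.23), jeb (0.18) and Hand (1.38, with a mean over all arrays below background). The summed linear signal of the list was 554 to 595 on the GFP-positive arrays, against 414 to 430 on the GFP-negative arrays.

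Of 14 measured hemocyte markers 3 passed as higher and 0 as lower, against 1.5% and 0.968% of all genes, with a median of 0.36. Those 3 were the papilin gene Ppn (0.85 ± 0.12), the fascin gene sn (0.43 ± 0.07) and the collagen IV gene vkg (1.11 ± 0.23). In value 9 of the 14 were higher and 5 lower, the lower ones being gcm (-0.17), gcm2 (-0.48), crq (-0.0031), lz and NimC1. The summed linear signal was 1090 to 1158 on the GFP-positive arrays, against 857 to 886 on the GFP-negative arrays, while Hml, lz and NimC1 had means below background in both groups. In the epidermis list 1 of 10 genes passed as higher, yrt (0.29 ± 0.06, limma adjusted p = 0.037), and 0 as lower. cora differed by 0.41 ± 0.09 (adjusted p = 0.058) and sdt by -0.44 ± 0.12 (adjusted p = 0.103). In value 8 of the 10 epidermis genes were higher and 2 lower. The epidermis sum was 2130 to 2314 on the GFP-positive arrays, against 1829 to 2005 on the GFP-negative arrays, with all 10 markers above background. Such sums weigh the brightest genes most, here pyd and Nrg with GFP-positive means of 9.48 and 8.96. The part of muscle, visceral, blood or epidermal cells in the difference of so was not tested. Differences, medians and sums given for these lists are not adjusted for gene span, with which differences rise in these data.

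Markers of the nervous system and trachea gave no call. Of 7 neuron, 9 neuroblast, 6 glia and 5 trachea genes 0 passed, with medians of 0.16, 0.059, -0.065 and -0.13. The smallest p belonged to fne (0.46 ± 0.18) and nSyb (1.06 ± 0.61, with both means below background) among neuron genes, to sna (0.21 ± 0.05) and dpn (-0.29 ± 0.09) among neuroblast genes, to loco (0.18 ± 0.08) and gcm (-0.17 ± 0.07) among glial genes, and to btl (-0.51 ± 0.18) and kni (-0.38 ± 0.19) among tracheal genes. For loco the mean of its probe sets gave -0.14.

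The calls around so were of unequal firmness. lmd, kst and Hph, chosen for their likeness to so, passed in each of the 6 fits that left out 1 array. Hph did not pass with the mean of its probe sets (0.18, limma adjusted p = 0.567). blow did not pass without GFP-positive replicate 2 (limma adjusted p = 0.055), Ppn without GFP-positive replicate 1 or 2 (0.053 and 0.062), and Him without any 1 of the GFP-positive arrays (0.058 to 0.068). rols, Con, if, sn, Vrp1 and COX5B passed in 1 of these 6 fits each, and bap, mib2, vkg and yrt in 0. With the single prior variance 0 of these genes passed, which follows from its 0 calls among all 13966 probe sets.

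Across 15 other ways of fitting the data, so passed in 14. In 11 of the 15 the size of the difference could change, and so then lay between 0.56 and 0.97. It passed in each of the 6 fits that left out 1 array, with adjusted p from 0.017 to 0.033. eya, Six4, Optix and dac passed in 0 of the 15, with differences from 0.066 to 0.25 for eya, from -0.31 to -0.14 for Six4, from -0.49 to -0.21 for Optix and from -0.74 to 0.066 for dac.

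**Figure D4:**
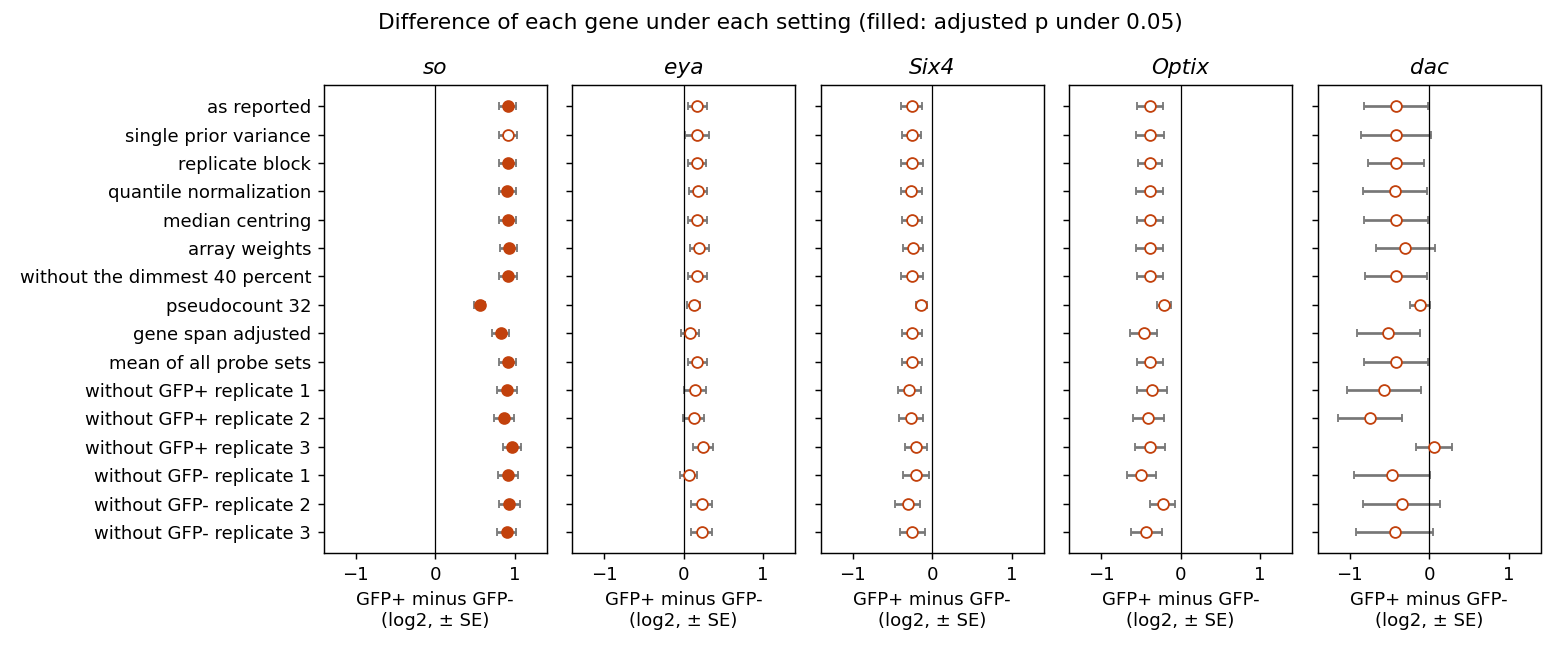
Difference of each network gene (GFP-positive minus GFP-negative, log2 ± SE, x axis) under each way of fitting (rows), with filled points where the adjusted p was under 0.05. so is filled in every row but the single prior variance, the other 4 genes in none, and dac crosses 0 without GFP-positive replicate 3.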

How the data were processed

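The authors deposited 1 value per probe set and array, read as log2 because powers of 2 of these values fit under a scanner's limit of 65535. The submitters' processing notes name affy. Its version is not given in the sources used here, nor how background, scaling and probes were handled. No further scaling was applied. Of 14010 probe sets, 44 controls were left out. Genes were named from the platform annotation, which gave 1 gene for 12443 of the 13966 tested probe sets, several for 327 and none for 1196. The probe set with the highest mean stood for each of 10844 genes. GFP-positive minus GFP-negative was tested with limma 3.58.1 (R 4.3.3; lmFit, eBayes with level-dependent and robust prior variance, 2-sided, Benjamini-Hochberg over all tested probe sets, threshold 0.05). The fit was also run on simulated data whose normal noise had an SD set by level alone. Such noise favours a level-dependent prior, so that run cannot decide between this prior and the single one. Alternatives were a single prior variance, a replicate block, quantile normalization, median centring, array weights, dropping the dimmest 40% of probe sets, a pseudocount of 32, an adjustment for gene span, the mean of a gene's probe sets and leaving out each array. The members, the lists and the fit were chosen with earlier results of these data known, so no count above or below is independent support for them. From each list the text names up to 6 members that passed, or the 2 with the smallest p where fewer than 2 passed. Doc1, Doc2, Doc3, pnr, eve, zfh1, Hand, ey, toy, ato, gl, lz, ems, oc, btd, tll, tj, Hml, NimC1, gcm2, crq, sdt, pyd, Nrg and the chromosome neighbours were named outside this rule, after their values were seen. So were tup in the cardiac and dorsal mesoderm list and gcm in the hemocyte list. The same holds for org-1, bin, Alk and jeb of the visceral mesoderm list and for Poxm, kirre, twi and sns of the muscle list. A gene that was listed without a measured probe set, tin among them, is not analysed here.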

Additional observations from a re-analysis of the deposited data

How the results depend on the processing

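The number of probe sets called depended most on the fit. It was 340 as reported, 0 with a single prior variance, where so lost its call (0.91, adjusted p = 0.156), 655 without the dimmest 40% of probe sets, 156 after the span adjustment and 102 to 189 without 1 array. With the replicate block 437 probe sets were called and so differed by 0.91 (adjusted p = 0.0096). Same-numbered arrays had correlated deviations of 0.17, 0.096 and 0.043 over 6280 probe sets, and each array correlated best with its own number, a hint from the data and not from the design. The block changed no call of the 5 network genes. Of the other genes named as called, vkg (adjusted p = 0.070) and Vrp1 (0.053) did not pass with it, while gro, of the eye specification list, did (0.044). Called higher with the block were 1 eye specification, 2 epidermis and 2 visceral mesoderm genes. Without the dimmest 40% of probe sets srp (0.047) and cora (0.022) passed. Without GFP-positive replicate 3 the difference of dac turned to 0.066 and that of l(2)gd1 to 0.010, which lay at -0.57 without GFP-positive replicate 2. With the mean of all probe sets tup turned to -0.13 and loco to -0.14, and Hph lost its call (0.18, adjusted p = 0.567). so lay between 0.87 and 0.97 without 1 array, eya between 0.066 and 0.25, Six4 between -0.31 and -0.20, Optix between -0.49 and -0.23 and dac between -0.74 and 0.066. With 3 arrays a group, an unreplicated probe set per gene and an undescribed normalization, differences such as those of eya, Six4 and Optix could be neither called nor shown to be absent, and dac lay too near background on 1 array for a direction.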
